A study of Mus musculus with 18 samples.

Results

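The BCL2 family genes examined here are 10 members of the mitochondrial apoptosis machinery, chosen by name among the 43629 genes counted in the series. They comprise 4 anti-apoptotic genes (Mcl1, Bcl2l1, Bcl2 and Bcl2l2), 2 pore-forming effectors (Bax and Bak1) and 4 BH3-only genes (Bcl2l11, Bid, Bad and Pmaip1). All 10 passed the filter on low counts, which kept 11964 genes. The measurements are 3′ mRNA-seq (QuantSeq) counts from AT3 cells, a mouse mammary carcinoma line used as a model of triple-negative breast cancer. There were 6 conditions with 3 libraries each. A pretreatment of 1 h with DMSO, with A-241 at 250 nM or with A-485 at 1000 nM came first, and IFNγ (recombinant murine protein, 1 ng/mL) or its vehicle was then added for another 2 h, so that every library had 3 h of inhibitor or DMSO. The conditions are called DMSO, A-241, A-485, IFNγ, A-241 + IFNγ and A-485 + IFNγ. All came from 1 unmodified cell line, and the inhibitors were used at different concentrations. The labels describe the triplicates as biological and the study's methods as technical, so p-values measure the spread between these libraries, which may be technical.

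In mitochondrial apoptosis, BAX and BAK1 form pores in the outer mitochondrial membrane and release cytochrome c. The anti-apoptotic members hold these effectors in check, and the BH3-only members either neutralise the anti-apoptotic proteins or activate the effectors directly. Many of these genes are controlled by transcription, and short-lived transcripts such as that of Mcl1 are often watched when transcriptional co-activators are blocked. A-241 and A-485 inhibit the acetyltransferase activity of the co-activators P300 and CBP, and IFNγ activates transcription in part through IRF1.

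Libraries held between 3417167 and 7856830 counts. At these depths 3 counts, the limit that a count of 0 allows, correspond to between 0.369 and 1.04 CPM (counts scaled to library size), for counting error only. The IFNγ response was present in each treated library, since Irf1 lay between 11.4 and 24.2 CPM in the 9 libraries without IFNγ and between 351 and 820 CPM in the 9 with it. Libraries DMSO replicate 3 and IFNγ replicate 2 stood apart, with 20.1% and 23.0% of their counts on the non-coding transcript Gm42418, against 7.11% to 16.2% in the other 16. The summed level of 8 mammary epithelial markers was 1651 to 2019 CPM in DMSO and 1450 to 1694 CPM in IFNγ, above the 1053 to 1309 CPM of the 4 conditions with an inhibitor. Of these markers Cdh1 and Krt14 were the most abundant, and Krt19 had at most 3 counts in every library. The leukocyte markers Ptprc, Cd3e, Lyz2, Adgre1 and Itgam summed to between 2.68 and 39.5 CPM, with Adgre1 at 0 in all 18 libraries. Of 3 endothelial markers, Pecam1 lay between 0.435 and 4.12 CPM, Kdr reached at most 1.19 CPM and Cdh5 was at 0 in all libraries. Fewer cells of a type and less RNA per cell cannot be told apart in such bulk samples.

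In the main edgeR fit (all 18 libraries, no added terms), 1 of the 10 genes, Bcl2l1, passed the test in A-241 against DMSO, beside 4.35% of all genes tested. In A-241 + IFNγ against IFNγ 1 member passed, Bcl2l11, beside 4.09% of all genes. No member passed in the other comparisons, and the promoters of these 2 genes are shown. The promoter sequences are the 250 bases before the RefSeq transcription start in GRCm38.p6, that of Bcl2l11 at chr2:128125788-128126037 on the plus strand and that of Bcl2l1 at chr2:152831729-152831978 on the minus strand. Each is printed 5′ to 3′ along its gene, and capitals mark the forkhead (FOXO) motif GTAAACA and the GC box GGGCGG.
Bcl2l11: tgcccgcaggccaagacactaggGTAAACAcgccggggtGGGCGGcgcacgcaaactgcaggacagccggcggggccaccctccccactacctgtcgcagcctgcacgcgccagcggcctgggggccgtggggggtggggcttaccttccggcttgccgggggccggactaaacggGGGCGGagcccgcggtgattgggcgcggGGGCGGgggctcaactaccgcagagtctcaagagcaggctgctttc
Bcl2l1: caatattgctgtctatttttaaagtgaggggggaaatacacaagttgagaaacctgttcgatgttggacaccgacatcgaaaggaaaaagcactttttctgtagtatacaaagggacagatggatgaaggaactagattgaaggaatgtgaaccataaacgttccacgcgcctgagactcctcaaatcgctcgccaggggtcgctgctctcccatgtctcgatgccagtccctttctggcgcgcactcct
The Bcl2l11 window holds 1 FOXO motif and 3 GC boxes, and the Bcl2l1 window holds none of the motifs searched. Promoter windows were found for 9 members, 13 windows in all, and the set searched held 32851 windows. Both strands were searched, and different motifs were allowed to overlap. The FOXO motif is in 3.17% of all windows, and among the members only in that of Bcl2l11. The GC box is in 32.7% of all windows and in 8 of the 13 windows of members, belonging to Bad, Bax, Bcl2, Bcl2l11, Bcl2l2, Bid and Mcl1. The core of the interferon-stimulated response element is in 2.98% of all windows and in no window of a member. The cAMP-response motif TGACG, in 17.8% of windows, is in that of Bcl2, and the E-box CACGTG, in 6.02%, is in that of Bax. A match is a description of these letters only and marks no bound site.

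**Figure D1:**
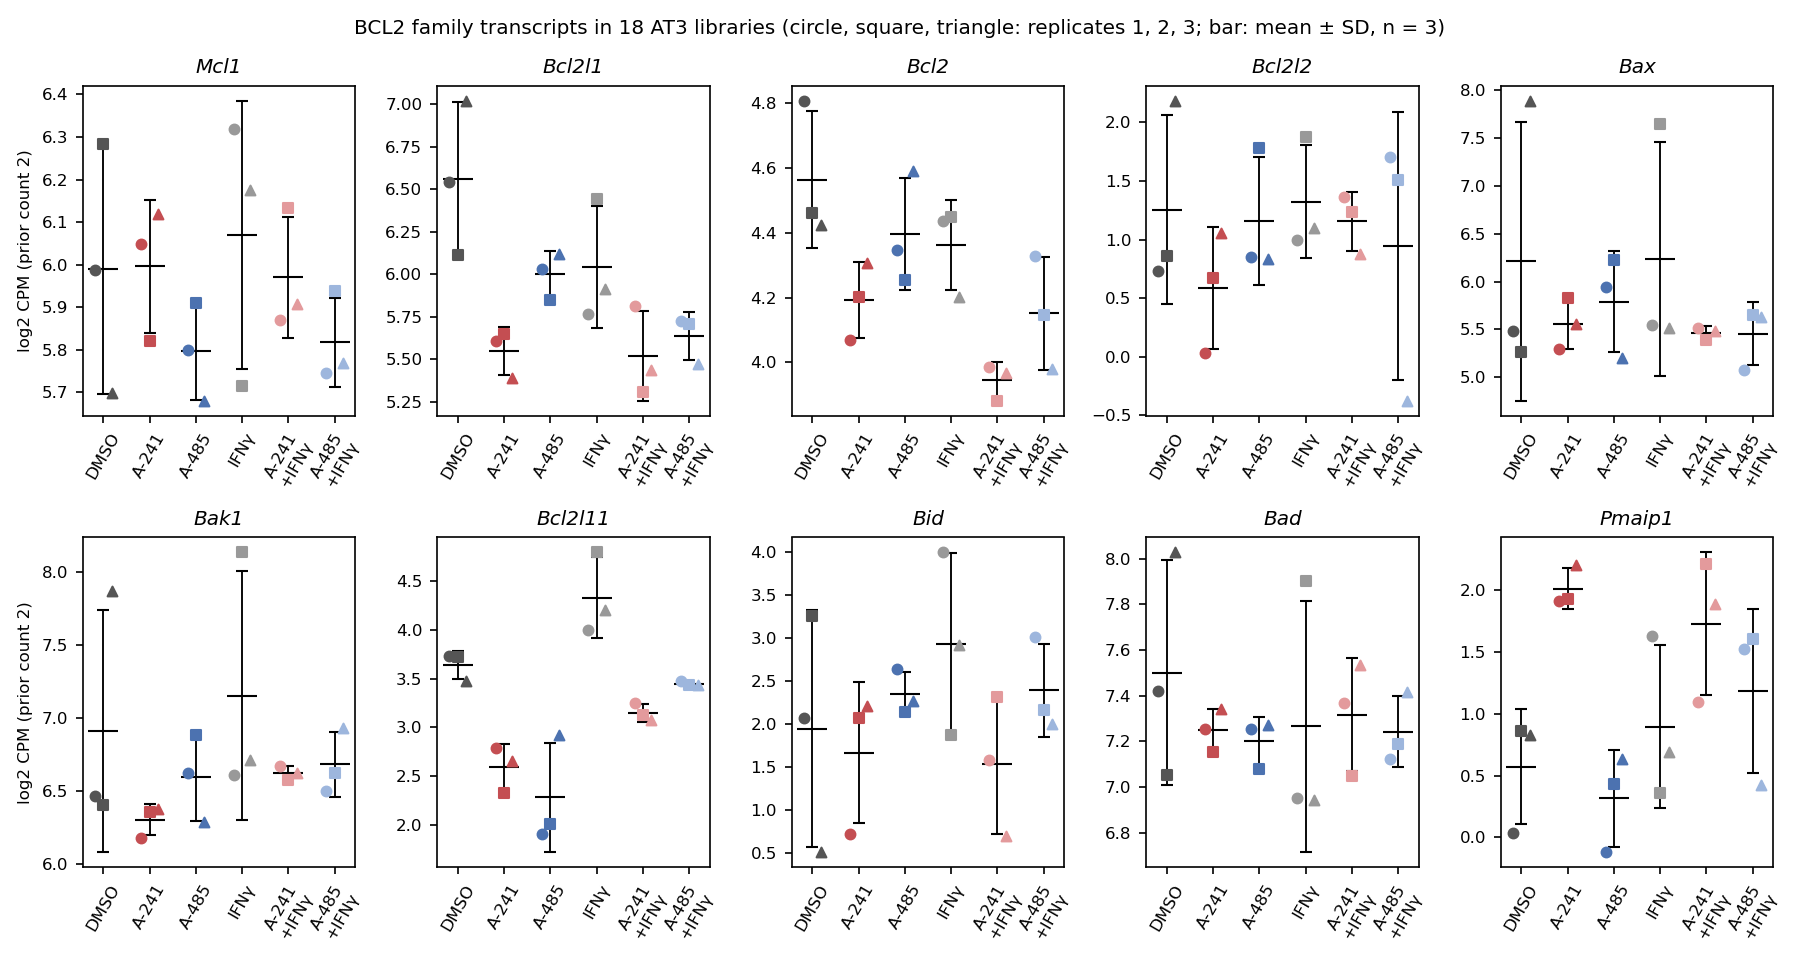
Level of each of the 10 genes in the 18 libraries, as log2 CPM with a prior count of 2, by condition. Circles, squares and triangles are replicates 1, 2 and 3, and bars are the mean ± SD (n = 3). Bcl2l11 is highest with IFNγ and lower in all 4 conditions with an inhibitor, Pmaip1 is highest in A-241, and the high Bax, Bak1 and Bad points in DMSO and IFNγ are the libraries rich in Gm42418.

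In the absence of IFNγ, A-241 lowered the transcript of 1 anti-apoptotic gene, Bcl2l1, and no member passed the test for an increase. Bcl2l1 encodes BCL-XL, which binds and restrains BAX, BAK1 and several BH3-only proteins (chr2:152780668-152831728, minus strand, GRCm38, ENSMUSG00000007659). It was measured at 93.0, 68.8 and 129 CPM in the DMSO libraries (441, 436 and 374 counts) and at 48.4, 49.9 and 41.5 CPM in the A-241 libraries (230, 249 and 197 counts). All 3 A-241 libraries lay below all 3 DMSO libraries. The log2 fold change was -1.05 ± 0.23 (SE), a 2.08-fold decrease, with an adjusted p of 0.00719 (edgeR quasi-likelihood test, Benjamini-Hochberg over all 11964 genes, called under 0.01). By the same rule 4.35% of all genes tested were called, 3.53% lower with A-241 and 0.827% higher, beside 1 member of 10 lower and 0 higher.

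The Bcl2l1 call was sensitive to single libraries. Its adjusted p was 0.0171 without DMSO replicate 1, 0.0299 without DMSO replicate 3, 0.0273 without A-241 replicate 1, 0.0244 without A-241 replicate 2 and 0.0427 without A-241 replicate 3, and it stayed called only without DMSO replicate 2 (0.00199). The decrease was -0.83 with an adjusted p of 0.00147 when both Gm42418-rich libraries were left out. The summed epithelial markers moved in the same direction, and their part in the result was not tested.

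With A-485, Bcl2l1 was measured at 65.0, 57.3 and 69.0 CPM, and these values overlapped those of DMSO. The log2 fold change was -0.60 ± 0.22 (SE), which did not pass (adjusted p = 0.241, edgeR), and without both Gm42418-rich libraries it was -0.37. All 3 A-241 libraries lay below all 3 A-485 libraries, at a log2 difference of -0.45 with a 95% interval from -0.93 to 0.03 (adjusted p = 0.655, edgeR). This comparison sets 250 nM of one compound against 1000 nM of the other.

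Under IFNγ the Bcl2l1 level was 54.0, 86.7 and 59.98 CPM, the highest being the Gm42418-rich library. Adding A-241 gave 55.9, 39.3 and 42.9 CPM and adding A-485 gave 52.4, 51.9 and 44.1 CPM. The A-241 + IFNγ libraries overlapped those of IFNγ alone, and the A-485 + IFNγ libraries lay below all of them. Neither difference passed, at log2 values of -0.53 ± 0.23 (SE) and -0.43 ± 0.22 (SE), and nor did IFNγ against DMSO at -0.54 ± 0.22 (SE), for which the adjusted p was 0.468 (edgeR). The effect of A-241 with IFNγ minus that without it was 0.52 (95% interval -0.16 to 1.19, adjusted p = 1.000, edgeR), so the difference between the effects was not resolved.

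Mcl1 encodes a short-lived guardian of the mitochondrial membrane that sequesters BAK1, BIM and NOXA (chr3:95658788-95663176, plus strand). Its transcript was nearly level over the 18 libraries, between 50.9 and 79.4 CPM with a median of 59.7. DMSO libraries had 63.0, 77.5 and 51.5 CPM, A-241 libraries 65.8, 56.1 and 69.1 CPM, and A-485 libraries 55.2, 59.7 and 50.9 CPM. With IFNγ the values were 79.4, 52.1 and 71.9 CPM, with A-241 + IFNγ 58.1, 69.8 and 59.6 CPM, and with A-485 + IFNγ 53.2, 60.9 and 54.1 CPM. Condition ranges overlapped in every comparison of the design. Its fitted log2 fold changes lay between -0.28 and 0.20 over the 9 comparisons and none passed. For A-241 against DMSO the 95% interval ran from -0.39 to 0.37, so a change of 1 on the log2 scale in either direction lies outside it, and for IFNγ against DMSO it ran from -0.30 to 0.46. Without both Gm42418-rich libraries the largest difference was -0.44 for A-485 + IFNγ against IFNγ, with an adjusted p of 0.0537 (edgeR).

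Bcl2, the founding anti-apoptotic member (chr1:106538178-106714274, minus strand), was measured at 27.6, 21.6 and 21.1 CPM in DMSO and at 16.4, 18.03 and 19.4 CPM in A-241. These groups did not overlap. Neither did IFNγ (21.3, 21.4 and 18.01 CPM) and A-241 + IFNγ (15.4, 14.4 and 15.3 CPM). The log2 fold changes were -0.39 ± 0.16 (SE) and -0.43 ± 0.16 (SE), and neither passed (adjusted p = 0.159 and 0.136, edgeR). A-485 gave 19.9, 18.7 and 23.7 CPM alone and 19.7, 17.3 and 15.4 CPM with IFNγ, overlapping its controls in both settings. Bcl2 shares 558 exon bases with D630008O14Rik, which had 0 counts in every library.

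Bcl2l2, which encodes the anti-apoptotic protein BCL-W (chr14:54883377-54888234, plus strand), was close to the limit of detection, with 2 to 16 counts per library. Its values ran from 0.380 to 4.15 CPM, and its smallest adjusted p over the 9 comparisons belonged to A-241 against DMSO at 0.487 (edgeR). The Gm42418-rich libraries held 4.15 CPM (DMSO) and 3.28 CPM (IFNγ), above the 0.380 to 3.05 CPM of the other 16, and the log2 fold change of A-241 against DMSO was -0.81 with them and -0.24 without them. The gene shares 594 exon bases with Gm20521, which had 101 to 792 counts, so its counts are uncertain and no difference was detectable at this depth.

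For both pore-forming effectors the highest values lay in the Gm42418-rich libraries. Bax (chr7:45461697-45466898, minus strand) was measured at 44.5, 37.9 and 237 CPM in DMSO and at 46.2, 201 and 45.3 CPM in IFNγ, the high value being the Gm42418-rich library in each. Every other library lay between 33.3 and 74.4 CPM. Bak1 (chr17:27019810-27029009, minus strand) gave 87.9, 84.2 and 234 CPM in DMSO and 97.5, 281 and 104 CPM in IFNγ, with all others between 72.1 and 122 CPM. The same libraries were also the highest for Bad.

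**Figure D2:**
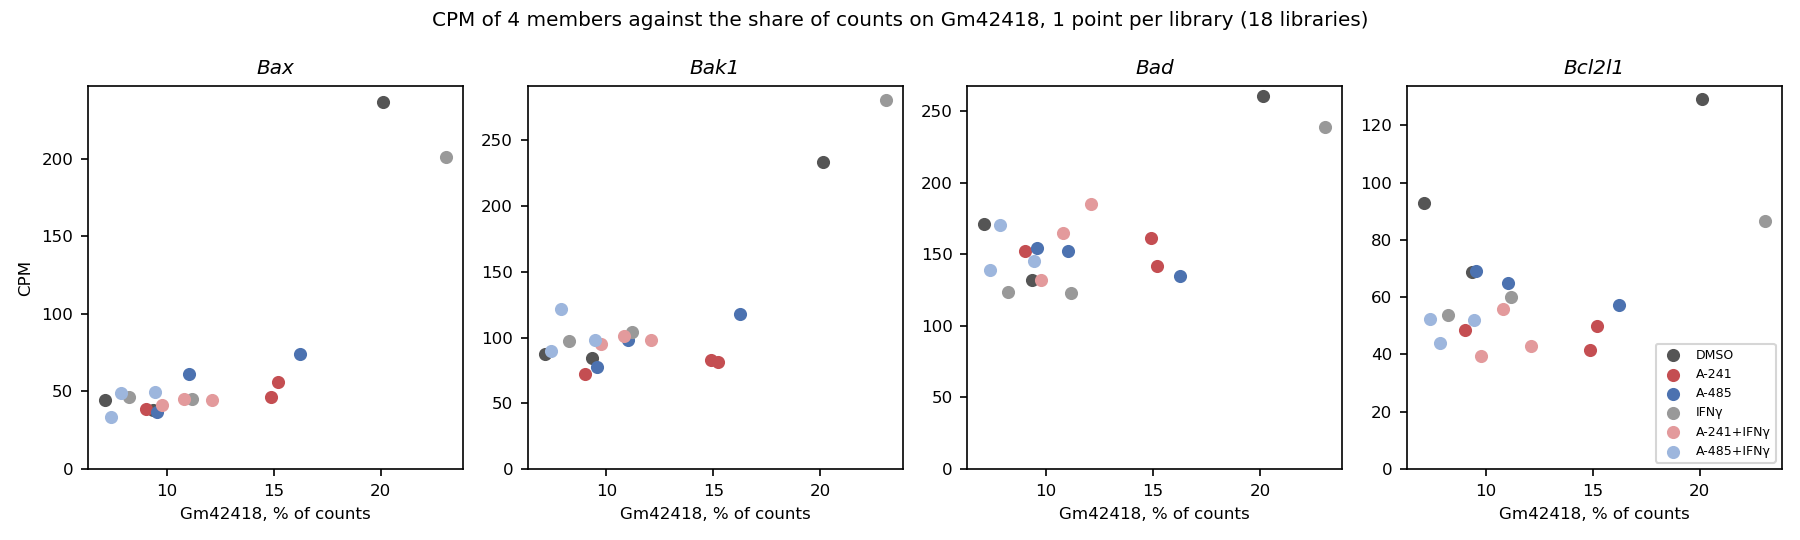
CPM of Bax, Bak1, Bad and Bcl2l1 (linear axis from 0) against the percent of counts on Gm42418, with 1 point per library (18 libraries) coloured by condition. The libraries at 20.1% and 23.0% lie above the other 16 for Bax, Bak1 and Bad. For Bcl2l1 the library at 20.1% also lies above the other 16, and that at 23.0% lies within their range.

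The fitted effect of A-241 against DMSO was -1.16 ± 0.62 (SE) for Bax and -0.77 ± 0.39 (SE) for Bak1, and neither passed (adjusted p = 0.284 and 0.252, edgeR). Without both Gm42418-rich libraries these values became 0.17 and -0.16. For A-485 against DMSO the Bax value turned from -0.88 to 0.45 and that of Bak1 from -0.46 to 0.16. Bak1 did not overlap between A-241 (72.1, 81.5 and 82.6 CPM) and A-241 + IFNγ (102, 95.1 and 98.2 CPM), at a log2 difference of 0.32 ± 0.39 (SE) that did not pass. The SE of all Bak1 fits includes the spread of both outlying libraries, and without them this difference was 0.34 ± 0.14 (SE) with an adjusted p of 0.545 (edgeR). Bak1 shares 437 exon bases with Ggnbp1, which had 60 to 124 counts, against 334 to 943 for Bak1.

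Among the BH3-only genes, the libraries of Bcl2l11 did not overlap between conditions in 8 of the 9 comparisons. In single comparisons between 7.85% and 26.7% of all genes tested did not overlap. The 9 comparisons reuse the same 6 conditions, and the share of genes reaching 8 was not counted. Bcl2l11 encodes BIM, which binds all anti-apoptotic members and can activate BAX and BAK1 (chr2:128126038-128162547, plus strand, ENSMUSG00000027381), and its promoter is the first of those printed above. Its level was 12.9, 12.8 and 10.7 CPM in DMSO, 6.52, 4.61 and 5.90 CPM in A-241 and 3.35, 3.63 and 7.20 CPM in A-485. With IFNγ it was 15.6, 27.4 and 18.01 CPM, with A-241 + IFNγ 9.14, 8.32 and 8.04 CPM, and with A-485 + IFNγ 10.7, 10.4 and 10.4 CPM. The libraries of each inhibitor lay below all libraries of the matching control, both without and with IFNγ.

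A-241 lowered Bcl2l11 in IFNγ-treated cells by a log2 fold change of -1.24 ± 0.26 (SE), a 2.36-fold decrease (adjusted p = 0.00567, edgeR). In this comparison 4.09% of all genes tested were called, 3.54% lower and 0.543% higher, and of the members 1 was lower and 0 higher. The adjusted p was 0.0158 without IFNγ replicate 2, 0.0112 without IFNγ replicate 3, 0.0214 without A-241 + IFNγ replicate 1, 0.0284 without replicate 2 and 0.0271 without replicate 3 of that condition, and 0.00482 without IFNγ replicate 1. With both Gm42418-rich libraries left out the decrease was -0.99 and remained called (adjusted p = 0.0048).

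In cells without IFNγ the Bcl2l11 fold changes were of similar size and did not pass the 0.01 threshold. They were -1.10 ± 0.27 (SE) for A-241 (adjusted p = 0.0166, edgeR) and -1.39 ± 0.28 (SE) for A-485 (adjusted p = 0.0148, edgeR), and both passed at 0.05, where 6.2% and 1.94% of all genes were called lower. Without both Gm42418-rich libraries the values were -1.21 (adjusted p = 0.00198) and -1.50 (adjusted p = 0.000924). Leaving out A-485 replicate 3, the library with 7.20 CPM of Bcl2l11, gave -1.83 (adjusted p = 0.00249). A-485 added to IFNγ gave -0.93 ± 0.25 (SE), with an adjusted p of 0.0773 (edgeR). A-485 at 1000 nM and A-241 at 250 nM differed by 0.28 in the absence of IFNγ (95% interval -0.33 to 0.90) and by 0.31 in the other direction with it, on the log2 scale, and neither difference passed.

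The IFNγ response of Bcl2l11 did not pass the test in any of its 3 settings. All IFNγ libraries lay above all DMSO libraries, at a log2 difference of 0.72 ± 0.25 (SE) with an adjusted p of 0.284 (edgeR), and without both Gm42418-rich libraries the difference was 0.37. In this comparison 1.3% of all genes tested were called, and 0 members. All A-485 + IFNγ libraries lay above all A-485 libraries, at 1.17 ± 0.28 (SE) with an adjusted p of 0.0502 (edgeR), where 0.802% of all genes were called, and 0 members. Leaving out A-485 replicate 3 gave 1.58 with an adjusted p of 0.00468, and leaving out both Gm42418-rich libraries gave 1.20 with 0.00517. All A-241 + IFNγ libraries lay above all A-241 libraries, at 0.58 ± 0.27 (SE) with an adjusted p of 1.000 (edgeR). The IFNγ effect with an inhibitor minus that without it was -0.14 ± 0.38 (SE) for A-241 and 0.45 ± 0.37 (SE) for A-485, and neither passed.

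Ordered by mean log2 CPM, Bcl2l11 was highest in IFNγ (4.33), followed by DMSO (3.64), A-485 + IFNγ (3.45), A-241 + IFNγ (3.15), A-241 (2.59) and A-485 (2.28). Only the last neighbours in this order, A-241 and A-485, differed by less than the larger SD of the pair. The 5 genes whose log2 CPM was most like that of Bcl2l11 over the 18 libraries, among 7410 genes with at least 50 counts on average, were Ksr1 (Pearson r = 0.94), Emb (0.93), Tgm2 (0.92), Trp53bp2 (0.90) and St3gal5 (0.89). These are descriptions over libraries that share 6 conditions, and the gene at rank 50 had r = 0.76.

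Pmaip1 encodes NOXA, a BH3-only protein that binds chiefly MCL1, and was the only member with a fitted increase in A-241. Counts were low throughout, at 3, 9 and 4 in the DMSO libraries, 16, 17 and 20 in A-241 and 3, 5 and 5 in A-485. In CPM these are 0.632, 1.42 and 1.38, then 3.37, 3.41 and 4.21, then 0.530, 0.954 and 1.16. The A-241 libraries lay above all libraries of both other conditions. The log2 fold change against DMSO was 1.66 ± 0.50 (SE), with an adjusted p of 0.0468 (edgeR), which passed at 0.05, where 2.87% of all genes were called higher, and not at 0.01. Leaving out any single library of either condition gave adjusted p-values between 0.0640 and 0.153. On pooled counts the CPM ratio was 3.19, with an exact 95% counting interval of 1.80 to 5.98 that covers counting error only.

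The same comparison for A-485 gave a ratio of 0.746 (0.330 to 1.66) and a log2 fold change of -0.39 ± 0.59 (SE). The Pmaip1 difference between A-241 at 250 nM and A-485 at 1000 nM was 2.05 ± 0.51 (SE) on the log2 scale, with a 95% interval from 0.98 to 3.13 and an adjusted p of 0.0778 (edgeR). No member was called in that comparison, where 0.368% of all genes were. With IFNγ the counts were 22, 3 and 7 in IFNγ, 8, 26 and 16 in A-241 + IFNγ and 13, 13 and 5 in A-485 + IFNγ, so all 3 conditions overlapped. The fitted value for A-241 added to IFNγ was 0.84 ± 0.45 (SE), with an adjusted p of 0.321 (edgeR).

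Bid, which links death receptors to mitochondria once cleaved by caspase-8 (chr6:120891930-120916853, minus strand), was measured at low counts. DMSO libraries gave 3.79, 9.16 and 1.04 CPM and IFNγ libraries 15.5, 3.28 and 7.17 CPM, the lowest of each being the Gm42418-rich library. The other conditions lay between 1.24 and 7.66 CPM. For A-241 added to IFNγ, where the libraries had 2.61, 4.57 and 1.24 CPM, the log2 fold change was -1.64 ± 0.63 (SE) and did not pass (adjusted p = 0.144, edgeR). Without both Gm42418-rich libraries it was -1.99, with an adjusted p of 0.00716. Bid shares 628 exon bases with Bcl2l13, which had 78 to 169 counts against 3 to 126 for Bid.

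Bad encodes a BH3-only protein that binds BCL2 and BCL-XL and is held inactive by phosphorylation (chr19:6941861-6951899, plus strand). It was measured at 171, 132 and 261 CPM in DMSO and 124, 239 and 123 CPM in IFNγ, and between 132 and 185 CPM in the 12 libraries with an inhibitor. No comparison passed. The largest fitted difference was -0.35 ± 0.26 (SE) for A-485 against DMSO, which became -0.07 without both Gm42418-rich libraries. Bad shares 524 exon bases with Gpr137, which had 8 to 37 counts.

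**Figure D3:**
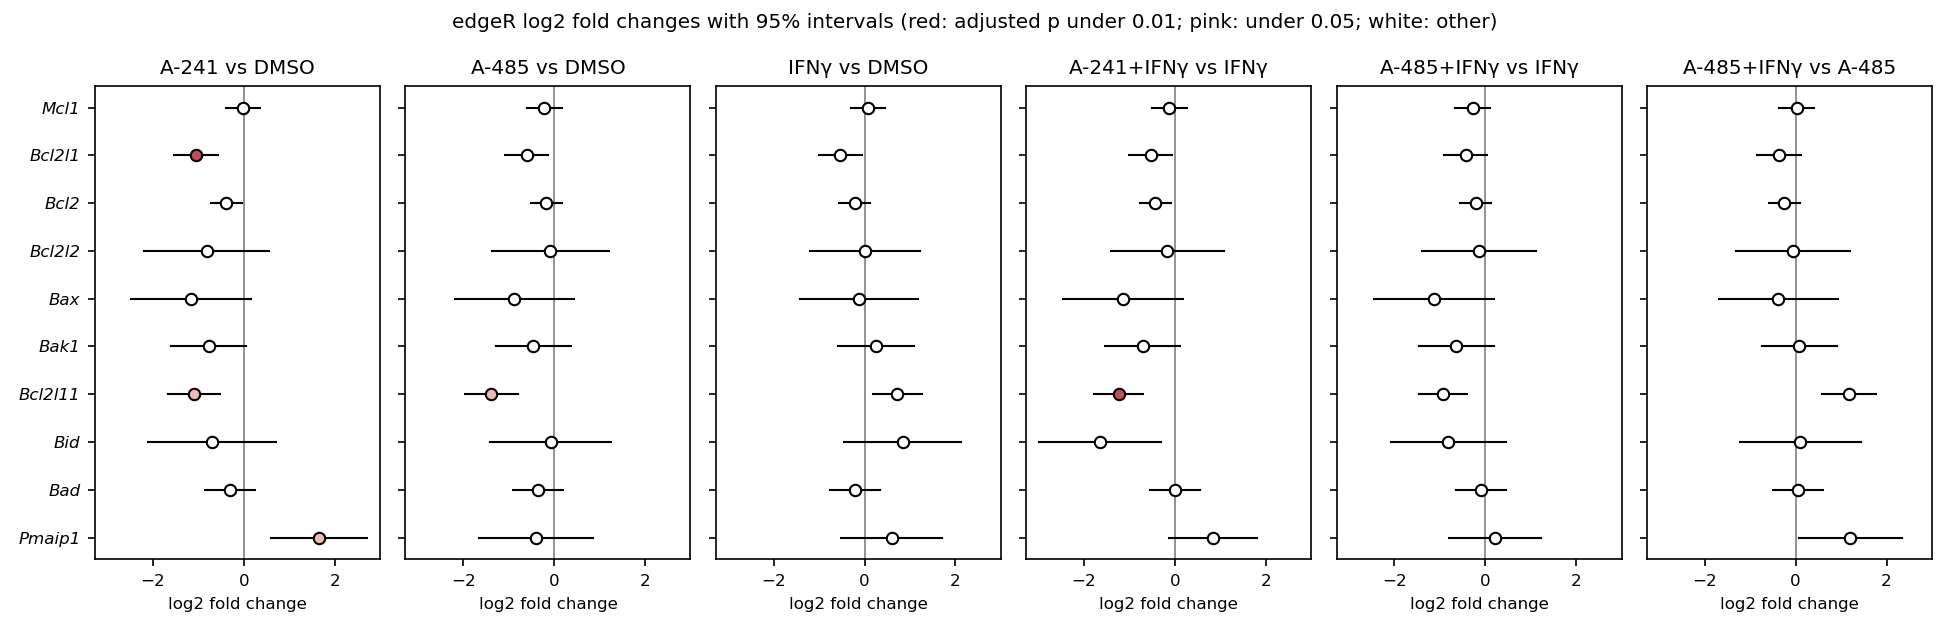
edgeR log2 fold changes (horizontal axis) of the 10 genes with 95% intervals in 6 comparisons, from 3 libraries per condition. Red points have an adjusted p under 0.01 (Bcl2l1 in A-241 against DMSO and Bcl2l11 in A-241 + IFNγ against IFNγ) and pink points one under 0.05 (Bcl2l11 in A-241 and in A-485, and Pmaip1 in A-241, each against DMSO).

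Counted together, 9 of the 10 genes had a fitted decrease in A-241 against DMSO, 10 in A-485 against DMSO, and 9 with each inhibitor added to IFNγ. Of all genes tested, 48.9% and 50.3% had a fitted decrease with A-241 and A-485 against DMSO. With IFNγ present these shares were 51.6% and 53.1%. The member counts include both Gm42418-rich libraries, and some signs turned without them, as for Bax and Bak1 in A-485 against DMSO. The median log2 fold changes over the members were -0.73, -0.37, -0.48 and -0.35, beside medians over all genes tested between -0.03 and 0.01. Without both Gm42418-rich libraries, which belong to DMSO and IFNγ, the members' medians were -0.21, -0.31, -0.18 and -0.12. The 2 inhibitors share the DMSO libraries, and likewise the IFNγ libraries, so their values are not independent. Libraries did not overlap for 5 members in A-241 against DMSO (Bcl2l1, Bcl2, Bak1 and Bcl2l11 lower, Pmaip1 higher), where 26.7% of all genes did not overlap. In A-485 against DMSO this held for Bcl2l11 alone, beside 15.9% of all genes.

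With IFNγ present, libraries of A-241 and IFNγ alone did not overlap for Bcl2 and Bcl2l11 (23.8% of all genes), and those of A-485 and IFNγ alone did not for Bcl2l1 and Bcl2l11 (20.6%). The share of all genes called in either direction was 0.66% for A-485 against DMSO, 0.552% for A-485 + IFNγ against IFNγ, 0.518% for A-241 + IFNγ against A-485 + IFNγ and 0.192% for A-241 + IFNγ against A-241. No member was called in any of these by the main edgeR fit. At an unadjusted p under 0.05 the members counted 2, 1, 0 and 1, beside 12.3%, 14.7%, 6.5% and 3.74% of all genes, and DESeq2 called Bcl2l11 in the first. Libraries of IFNγ and DMSO did not overlap for 1 member (7.85% of all genes), those of A-241 and A-485 for 2 (22.6%), those of both inhibitors with IFNγ for 1 (19.7%), and those of an inhibitor with and without IFNγ for 3 with A-241 (13.3%) and 2 with A-485 (18%). Neither interaction term was called for a member, with 0 of 10 at an unadjusted p under 0.05 in both, while 0.0334% of all genes were called for A-241 and 0% for A-485.

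The wider apoptosis machinery was examined through 49 further genes, of which 38 passed the filter on low counts. The other 11 (Bcl2a1a, Bcl2a1b, Bcl2a1d, Bcl2l10, Bcl2l14, Bcl2l15, Bik, Birc3, Bmf, Dffb and Hrk) had at most 19 counts in any library. Genes called in the main edgeR fit belonged to the death receptor arm, the branch in which a ligand outside the cell starts the cascade, and to the caspases. That fit called none of the other BCL2 relatives, released mitochondrial proteins, inhibitors of apoptosis or MCL1 turnover genes in the 9 comparisons. DESeq2 called the channel gene Vdac1 in A-241 against DMSO, as did edgeR with 2 surrogate variables. The latter also called Fbxw7 and Bbc3 in A-241 + IFNγ against IFNγ, and Bbc3 in A-485 + IFNγ against A-485. Without both Gm42418-rich libraries, edgeR called Htra2 in A-485 + IFNγ against IFNγ.

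Tnfsf10, which encodes the death ligand TRAIL, was measured at 7.59, 6.16 and 3.11 CPM in DMSO, 0.421, 2.00 and 0.843 CPM in A-241 and 2.65, 2.67 and 2.79 CPM in A-485. With IFNγ it reached 32.8, 18.2 and 40.2 CPM, against 5.87, 4.57 and 4.33 CPM with A-241 + IFNγ and 19.9, 19.6 and 26.2 CPM with A-485 + IFNγ. IFNγ raised it by 2.40 ± 0.35 (SE) on the log2 scale (adjusted p = 0.0005, edgeR), and A-241 gave log2 fold changes of -2.37 ± 0.46 (SE) without IFNγ (0.00313) and -2.64 ± 0.35 (SE) with IFNγ (0.000115). Between cells with and without IFNγ, Tnfsf10 rose by 3.01 ± 0.37 (SE) in the presence of A-485 (adjusted p = 0.000169, edgeR), and in the presence of A-241 the difference was 2.13 ± 0.46 (SE) and did not pass (adjusted p = 0.0699, edgeR). The latter was called by DESeq2 (0.00454), with 2 surrogate variables (0.000394) and without both Gm42418-rich libraries (0.00312). The difference between the IFNγ effects with A-241 and with DMSO was -0.26, with a 95% interval from -1.63 to 1.10, and did not pass. With IFNγ, A-241 gave a lower level than A-485, at a log2 difference of -2.15 ± 0.35 (SE), at an adjusted p of 0.00307 (edgeR), and leaving out any single library of these 2 conditions gave between 0.0104 and 0.0358. The Tnfsf10 decrease in A-241 without IFNγ rests on 2 to 10 counts per A-241 library, and was not called without DMSO replicate 1 (0.0168), DMSO replicate 2 (0.0112), A-241 replicate 1 (0.0218) or A-241 replicate 3 (0.0232).

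Tnfrsf1a, the receptor for TNF, was measured at 18.8, 16.9 and 15.5 CPM in DMSO and 56.2, 24.7 and 44.2 CPM in IFNγ, an increase of 1.30 ± 0.23 (SE) on the log2 scale with an adjusted p of 0.00353 (edgeR). With A-241 + IFNγ it was at 21.3, 21.5 and 15.1 CPM, lower than with IFNγ alone, at a log2 difference of -1.12 ± 0.23 (SE) with an adjusted p of 0.00481 (edgeR). Both differences were called without IFNγ replicate 2, the Gm42418-rich library, at adjusted p-values of 2.01e-05 and 4.76e-05, and neither was called when any other single library of its comparison was left out (0.0121 to 0.0240 and 0.0147 to 0.0333).

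Ripk1, the adaptor kinase that acts below this receptor, rose from 20.03, 14.2 and 16.6 CPM in DMSO to 31.6, 46.8 and 40.2 CPM in IFNγ, by 1.22 ± 0.19 (SE) on the log2 scale with an adjusted p of 0.000941 (edgeR). It stayed called with each library of this comparison left out in turn. Casp12, a caspase of the endoplasmic reticulum, fell from 14.6, 8.04 and 14.7 CPM in IFNγ to 3.70, 4.57 and 3.30 CPM in A-241 + IFNγ, a log2 fold change of -1.70 ± 0.29 (SE) with an adjusted p of 0.00135 (edgeR). Without A-241 + IFNγ replicate 1 its adjusted p was 0.0108, and without replicate 3 of that condition 0.0118.

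In counts, IFNγ raised 3 of the 38 tested genes of the wider list (Tnfsf10, Tnfrsf1a and Ripk1, all of the death receptor arm) and lowered 0, where 1.3% of all genes tested were called. A-241 lowered 1 in the absence of IFNγ and 3 in its presence, where 3.53% and 3.54% of all genes were called lower. A-485 changed 0 in either setting at 0.01, with 5 and 2 genes at an unadjusted p under 0.05, which 12.3% and 14.7% of all genes reached. The medians of the wider list lay between -0.05 and 0.06 in these comparisons, next to all-gene medians of -0.03 to 0.01.

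**Figure D4:**
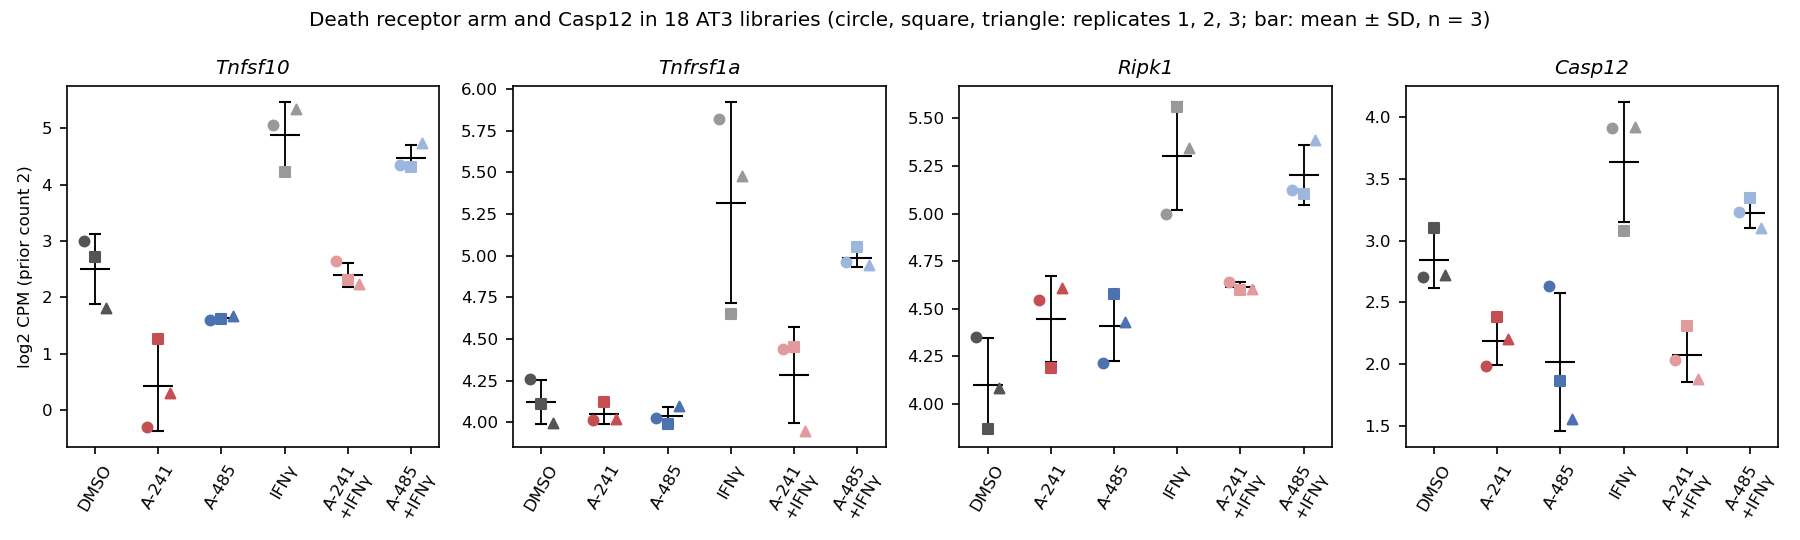
Level of Tnfsf10, Tnfrsf1a, Ripk1 and Casp12 in the 18 libraries, as log2 CPM with a prior count of 2, by condition. Circles, squares and triangles are replicates 1, 2 and 3, and bars are the mean ± SD (n = 3). Tnfsf10 is high in IFNγ and in A-485 + IFNγ and lower in A-241 + IFNγ, and the IFNγ libraries of Ripk1 lie above those of DMSO.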

How the data were processed

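Messenger RNA of AT3 cells was profiled by 3′ sequencing in 18 libraries. The authors trimmed reads with cutadapt 1.7, aligned them to GRCm38 with HISAT2 2.1.0 and counted them on exons with featureCounts, and deposited the raw count per gene without normalization. The annotation release is not given in the sources used here. The option -O, which counts a read for every gene it overlaps, was set, and no strand option is described. Reads on exon bases shared by genes can therefore be counted for each of them. Identifiers were joined to GENCODE vM21, which held 42548 of 43629.

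The tools were edgeR 4.0.16, DESeq2 1.42.0, limma 3.58.1 and sva 3.50.0 in R 4.3.3, and Python 3.11.15. Low genes were removed with filterByExpr grouped by condition, libraries were scaled by TMM, and glmQLFit was fitted to all 18 libraries with 12 residual degrees of freedom. Comparisons used glmQLFTest, p-values were adjusted by Benjamini-Hochberg over 11964 genes, and a gene was called under 0.01. CPM uses TMM-scaled library sizes, and log2 CPM has a prior count of 2. The common biological coefficient of variation was 0.263. The test was checked on simulated counts drawn independently for each library. No library was made to stand apart there, so the check does not cover the Gm42418-rich libraries.

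Groups came from the labels. The members and the gene lists were chosen with earlier results of these data known. All members were named, genes of the wider list were named where called (at most 4 per role), and the 5 genes most like the member called in most comparisons were taken by Pearson r. Alternatives were DESeq2, limma-voom, other filters and scalings, the replicate block, 2 surrogate variables, the groups compared alone, both Gm42418-rich libraries left out, a threshold of 0.05, and each library left out. Promoters came from RefSeq tables, and the window of Pmaip1 and protein sequences were not analysed here. Chromatin data of the study were not used here. Of the response checks, markers and motifs chosen, 3 items are not reported here.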

Additional observations from a re-analysis of the deposited data

How the results depend on the processing

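The Bcl2l1 and Bcl2l11 decreases kept their direction under all alternatives run. Of the log2 fold changes of single genes, 2130 kept their side of the threshold and, if their 95% interval held 0, moved by at most 1 SE, while 70 with such an interval moved by more. A further 50 kept their direction and no longer passed, 38 kept it and newly passed, and 0 whose interval excluded 0 changed sign. The members called were 1 in A-241 against DMSO, 1 in A-241 + IFNγ against IFNγ and 0 in every other comparison. With 2 surrogate variables they were 3 in each of these, 2 in A-241 against A-485, and 1 in IFNγ against DMSO, A-485 against DMSO, A-485 + IFNγ against IFNγ and A-485 + IFNγ against A-485. Without both Gm42418-rich libraries they were 2 in A-241 against DMSO, 2 in A-241 + IFNγ against IFNγ, 1 in A-485 against DMSO and 1 in A-485 + IFNγ against A-485. In A-241 against DMSO a threshold of 0.05 gave 3, DESeq2 gave 2 and the groups compared alone gave 0. In A-485 against DMSO a threshold of 0.05, DESeq2 and at least 10 counts in every library each gave 1. In A-241 + IFNγ against IFNγ total counts and the groups compared alone each gave 0. With single libraries left out, the range was 0 to 1 in A-241 against DMSO, A-485 against DMSO, A-241 + IFNγ against IFNγ and A-485 + IFNγ against A-485, and 0 to 0 in the other comparisons and both interactions.

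The replicate block gave 0 members called in A-241 against DMSO (Bcl2l1, adjusted p = 0.0166) and 0 in A-241 + IFNγ against IFNγ (Bcl2l11, adjusted p = 0.0136), and for the wider list 0 in A-241 + IFNγ against A-485 + IFNγ. Whether libraries with the same replicate number were prepared together was not tested. Over 45 pairs with the same number, deviations from the condition means correlated between -0.80 and 0.48 with a median of -0.02. Over 90 pairs with different numbers the range was -0.76 to 0.83, also with a median of -0.02. The value of 0.83 was that of both Gm42418-rich libraries, and that of -0.80 was IFNγ replicate 2 with DMSO replicate 2. By mean correlation, 5 of 18 libraries were most like those with their own number.

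For the wider list the counts were 3 (IFNγ against DMSO), 1 (A-241 against DMSO), 3 (A-241 + IFNγ against IFNγ), 1 (A-241 + IFNγ against A-485 + IFNγ) and 1 (A-485 + IFNγ against A-485), and 0 elsewhere. Fits of the groups compared alone gave 0, 0 and 0 in the first 3 and 4 in the last. In A-241 against DMSO, limma-voom, total counts and at least 10 counts in every library gave 0, while 0.05 and DESeq2 gave 2 and 2 surrogate variables 3. With 2 surrogate variables there were also 7 in A-241 + IFNγ against IFNγ, 4 in A-241 + IFNγ against A-485 + IFNγ, 7 in A-485 + IFNγ against A-485, 1 in A-485 against DMSO, 1 in A-241 + IFNγ against A-241 and 2 in the A-241 interaction. At least 10 counts in every library gave 0 in A-241 + IFNγ against A-485 + IFNγ and in A-485 + IFNγ against A-485, and total counts gave 0 in the former. In A-485 + IFNγ against A-485, 0.05 and DESeq2 gave 3, limma-voom 2, and leaving out both Gm42418-rich libraries 4. The latter also gave 2 in A-485 + IFNγ against IFNγ and 1 in A-241 + IFNγ against A-241, where DESeq2 gave 1. With single libraries left out the ranges were 2 to 3, 0 to 1, 1 to 3, 0 to 0 and 1 to 1 in the 5 comparisons with calls, and 0 to 0 in the rest. The cause of these changes was not tested. Depth limits Bcl2l2, Pmaip1 and Bid most.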

Other observations

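The Gm42418-rich libraries, DMSO replicate 3 and IFNγ replicate 2, also stood apart for 4 genes of the wider list, which were chosen after their values were seen. Over all genes tested, their root-mean-square deviation from the condition mean was 0.731 and 0.755 in log2 CPM. In the other 16 libraries it was 0.226 to 0.512. The share of all genes for which these libraries stood apart was not counted. Vdac2, which encodes a channel of the outer mitochondrial membrane that binds BAK1, was measured at 35.6 and 37.8 CPM in them and between 126 and 173 CPM in the other 16 libraries. Cycs, which encodes cytochrome c, was at 388 and 365 CPM in them and between 192 and 243 CPM in the others. Bcl2l13, a BCL2-related gene of the mitochondrial outer membrane whose exons overlap those of Bid, was at 49.4 and 44.7 CPM in them and between 14.7 and 33.9 CPM in the others. Bbc3, which encodes the BH3-only protein PUMA, was at 2.42 and 3.28 CPM in them and between 4.89 and 22.8 CPM in the others. None of these 4 genes was called by the main edgeR fit in any of the 9 comparisons. With 2 surrogate variables, edgeR called Bbc3 in A-241 + IFNγ against IFNγ and in A-485 + IFNγ against A-485.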
